A study of Mus musculus with 6 samples.

Results

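A set of 10 genes that feed, mark or attract natural killer cells were followed in tumors of 4T1, a line of murine mammary carcinoma cells. They are the cytokine genes Il15, Il18 and Il12a, the receptor chain genes Il15ra, Il2rb and Il2rg, and the chemokine genes Cxcl9, Cxcl10, Cxcl16 and Ccl5. The set was given as a list of names, drawn up with earlier results of these data known and with no rule on values, and each of the 10 symbols matched 1 of the 54146 gene rows of the deposited tables. One group of 3 tumors came from wild-type 4T1 cells and the other group of 3 from 4T1 cells with the genotype Mki67-/-, labelled Ki-67-KO, which lack an intact gene for Ki-67, a marker of dividing cells. The libraries are called WT1 to WT3 and KO1 to KO3 by their group and replicate number. All 6 tumors were grown for 3 weeks in nude mice, in the fat pad of the mammary gland; this host has no thymus and so few mature T cells, and keeps natural killer cells. The age of the mice and the number of knockout clones are not given in the labels, so clone and knockout cannot be told apart. Nothing in the labels says which libraries came from separate mice, and p-values then measure only the spread between these samples.

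As background, natural killer cells depend on IL-15, which dendritic cells, macrophages and other cells hold on their surface bound to the receptor chain Il15ra and present to the chains Il2rb and Il2rg on the lymphocyte. IL-18 and IL-12 act together to drive interferon-gamma from natural killer cells, and IL-18 is made as an inactive precursor that caspase-1 cuts. CXCL9 and CXCL10 are interferon-induced and draw cells that carry CXCR3, while CXCL16 binds CXCR6 and CCL5 binds receptors such as CCR1.

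In the knockout tumors 3 of the 10 genes fell, Il15, Il18 and Cxcl10, and 1 rose, Cxcl16. The receptor chain genes Il15ra, Il2rb and Il2rg and the chemokine genes Cxcl9 and Ccl5 did not pass the test, and Il12a was too low to be tested. Of all 19900 genes tested, 18.4% were lower and 17.6% were higher in the knockout tumors at an edgeR adjusted p under 0.05, 36.0% in all. The set's 4 called genes of 9 tested, 1 higher and 3 lower, stand beside that background. The counts over each list below stand beside the same shares. For 4 of the 9 tested genes the 3 knockout libraries did not overlap the 3 wild-type libraries, which held for 50.5% of all tested genes; 3 of the 4 lay lower, the direction of 26.0% of all tested genes. The median log2 fold change of the 9 tested genes was -0.37, and that of all tested genes was 0.05. Levels are in CPM, the usual scaling of a gene's count to the total count of its library, adjusted with the trimmed mean of M-values (TMM). Values after ± are the SD over n = 3 libraries of a group.

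Gene counts per library were 22081970 to 38399826, and the 3 knockout libraries were the shallowest. Unmapped read pairs were 30.8% to 33.9% of all pairs in the wild-type libraries and KO1, and 54.6% and 52.7% in KO2 and KO3. Across genes the libraries correlated at 0.992 to 0.993 within the wild-type group and 0.968 to 0.985 within the knockout group. Mki67 was at 360 CPM ± 34.9 in the wild-type group and 118 CPM ± 19.9 in the knockout group (edgeR adjusted p = 6.79e-05), in the direction of the labels. The 10 epithelial markers listed, which fit a carcinoma, summed to 2944 to 3047 CPM in the wild-type and 6163 to 6598 CPM in the knockout libraries.

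**Figure D1:**
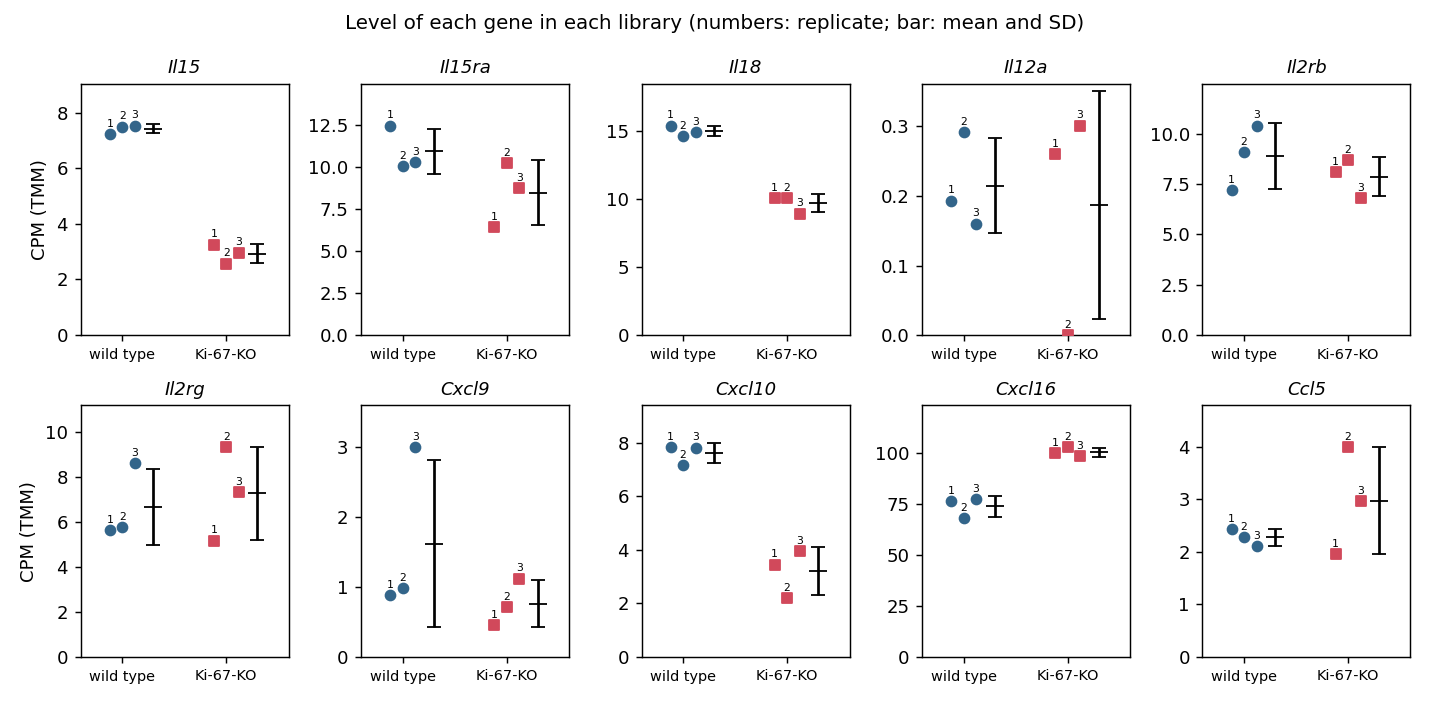
Level of each of the 10 genes in CPM (TMM scaling, linear axes from 0) in the 3 wild-type libraries (circles) and the 3 Ki-67-KO libraries (squares), with replicate numbers and the mean and SD beside each group. Il15, Il18 and Cxcl10 lie lower and Cxcl16 lies higher in all 3 knockout libraries, and the groups overlap for the other 6 genes.

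Il15, the cytokine on which natural killer cells depend for survival, was at 7.23, 7.49 and 7.54 CPM in the wild-type libraries and at 3.25, 2.57 and 2.97 CPM in the knockout libraries. The wild-type values were nearly equal, and the highest knockout library lay far below the lowest of them. Its level was 2.53-fold lower in the knockout tumors, -1.34 on the log2 scale (SE 0.16, edgeR adjusted p = 0.000385). Of all tested genes, 3.28% had a lower log2 fold change.

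Il15 (ENSMUSG00000031712) lies on GRCm38 chromosome 8, 82331632 to 82403222, minus strand, and most of its neighbours had log2 fold changes of the other sign. Over the 1038 tested genes of chromosome 8 the median log2 fold change was 0.44, with 43.3% called higher and 5.39% lower, while the medians of the other autosomes and the X chromosome lay between -0.15 and 0.31. Within 5 Mb of Il15, 119 other genes were tested, of which 46 were higher and 5 lower. Their median was 0.41, and 3 of them had a lower log2 fold change than Il15. Of the 119, 93 had a positive log2 fold change.

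**Figure D2:**
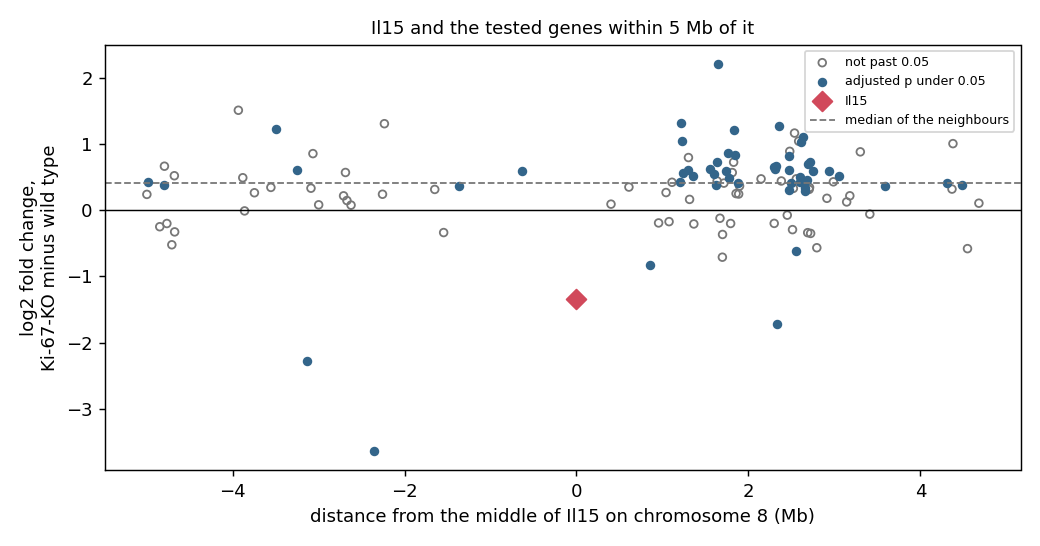
Log2 fold change (Ki-67-KO minus wild type) of Il15 (diamond) and of the 119 tested genes within 5 Mb, against distance from the middle of Il15 in Mb. Filled points passed an edgeR adjusted p of 0.05, the dashed line marks the neighbours' median of 0.41, and Il15 lies at -1.34 with 3 neighbours below it.

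Il15ra (ENSMUSG00000023206, GRCm38 chromosome 2, 11705290 to 11734317, plus strand), the chain that binds IL-15 and presents it in trans, was at 12.5, 10.04 and 10.3 CPM in wild-type and at 6.41, 10.2 and 8.73 CPM in knockout tumors. KO2 reached the wild-type range, so the groups overlapped. The log2 fold change was -0.37 (95% interval -0.80 to 0.06, edgeR adjusted p = 0.155). It passed without KO2 (-0.58, edgeR adjusted p = 0.0239), when the unmapped share entered the fit (-0.74, adjusted p = 0.0144) and in the 4 libraries under 40% unmapped pairs (-0.83, adjusted p = 0.00503). The 18 alternatives gave it adjusted p-values between 0.00503 and 0.481. Per kb of exon, Il15 stood at 1.14, 1.47 and 1.44 times the level of Il15ra in the wild-type libraries and at 0.998, 0.494 and 0.668 times in the knockout libraries. With the longest transcript as the length the wild-type ratios were 0.705, 0.906 and 0.891 and the knockout ratios 0.616, 0.304 and 0.412, so which of the pair was higher in the wild-type libraries depended on the length used.

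Neither signalling chain of the receptor passed the test. Il2rb (ENSMUSG00000068227, GRCm38 chromosome 15, 78479256 to 78495271, minus strand), the chain shared by the receptors of IL-2 and IL-15, was at 7.18, 9.08 and 10.4 CPM in wild-type and at 8.07, 8.69 and 6.80 CPM in knockout tumors. The groups overlapped, with a log2 fold change of -0.18 (95% interval -0.58 to 0.22, edgeR adjusted p = 0.450). Il2rg (ENSMUSG00000031304, chromosome X, 101264378 to 101268255, minus strand), the common gamma chain, was at 5.63, 5.77 and 8.63 CPM in wild-type and at 5.17, 9.32 and 7.31 CPM in knockout tumors. Its groups overlapped too, at 0.12 (95% interval -0.45 to 0.69, edgeR adjusted p = 0.733). WT3 was the highest wild-type library for both chains. Of the exonic bases of Il2rg, 30.5% are shared with Gm20489, where pairs overlapping both genes were not counted, and Gm20489 itself held 0 counts.

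Markers of natural killer cells were far lower in the same libraries. Of 14 markers 11 were tested, 9 were lower and none higher, with a median log2 fold change of -2.89. The 14 summed to 44.8 to 60.2 CPM in the wild-type and 3.99 to 8.99 CPM in the knockout libraries, and none was at 0 in all 3 knockout libraries. The activating receptor gene Ncr1 was 7.42-fold lower, from 1.69 CPM ± 0.22 to 0.222 CPM ± 0.068 (edgeR adjusted p = 0.000404), and Eomes, a transcription factor of the lineage, was 11.7-fold lower. In RNA from a whole tumor, fewer cells of a type and less RNA per cell cannot be told apart. T cells carry Il2rb and Il2rg as well. The 12 T cell markers listed summed to 8.95 to 10.02 CPM in the wild-type and 10.4 to 11.9 CPM in the knockout libraries. Of the 8 tested, 1 was higher, 1 lower and 6 were not called, with a median log2 fold change of -0.07. Trac, the marker called higher, went from 0.295 CPM ± 0.278 to 3.53 CPM ± 0.56. Lck, the marker called lower, went from 3.66 CPM ± 0.27 to 1.81 CPM ± 0.24. The part of either cell type in the levels of Il2rb and Il2rg was not tested.

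Other genes listed with the common gamma chain pathway were called in both directions. Of 19 listed, 16 were tested, 3 were higher and 5 lower, and the median log2 fold change was -0.26. Of all tested genes, 17.6% were higher and 18.4% lower. The 3 higher include Tslp, whose receptor pairs with Il7r. The number lower was 3 without WT1, WT2 or KO3, and 8 without KO2. Jak3, the kinase bound to the gamma chain, rose 2.04-fold, from 110 CPM ± 8.92 to 225 CPM ± 56.1 (edgeR adjusted p = 0.00218). Jak3 lies on chromosome 8, where the median log2 fold change was 0.44 and 43.3% of tested genes were called higher. The part of that shift in its rise was not tested. Il7, the cytokine that acts through the same gamma chain on lymphoid cells, was 2.28-fold lower (edgeR adjusted p = 0.00313), and Il21r, the receptor of IL-21, was 5.11-fold lower (adjusted p = 0.00217). Mcl1, a survival gene of the Bcl2 family that IL-15 sustains in natural killer cells, was 1.52-fold lower (adjusted p = 0.00205). It stood at 342 CPM ± 14.9 and 226 CPM ± 20.8 in the whole tumors, and the part of natural killer cells in it was not tested. Jak1, the kinase bound to Il2rb, fell by 0.33 on the log2 scale (adjusted p = 0.0152), a call that was lost without WT1 (adjusted p = 0.0569), WT2 (0.0695) or KO3 (0.0520), or when the share of pairs outside exons entered the fit (0.0899).

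Il18, the cytokine that primes natural killer cells for interferon-gamma, was at 15.4, 14.7 and 15.0 CPM in wild-type and at 10.1, 10.1 and 8.95 CPM in knockout tumors. The groups were tight and did not overlap. Its level was 1.55-fold lower, -0.63 on the log2 scale (SE 0.12, edgeR adjusted p = 0.00383). Il18 (ENSMUSG00000039217) lies on GRCm38 chromosome 9, 50554827 to 50581840, plus strand.

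The antagonist of IL-18 fell, as its ligand gene did, and the receptor chains rose. Il18bp, the secreted protein that binds and blocks IL-18, was 2.44-fold lower, from 10.4 CPM ± 1.6 to 4.29 CPM ± 1.33 (edgeR adjusted p = 0.00328). Il18r1, the ligand-binding chain of the receptor, was at 0.773, 0.847 and 0.962 CPM in wild-type and at 6.12, 4.70 and 5.59 CPM in knockout tumors. That is a 6.33-fold rise (log2 fold change 2.66, SE 0.21, edgeR adjusted p = 4.15e-05), with no overlap between the groups. Il18rap, the accessory chain, was at 36.7, 39.6 and 32.3 CPM in wild-type and at 119, 110.05 and 115 CPM in knockout tumors, 3.17-fold higher (edgeR adjusted p = 1.09e-05). Both receptor chains rose in libraries where 9 of 11 tested markers of natural killer cells were lower. Natural killer cells are not the only cells that carry these chains, and the counts do not show which cells held them. Of the 10 neutrophil markers listed, 5 were higher and none lower, and 3 were higher when WT1 or KO3 was left out. The 10 summed to 237 to 282 CPM in the wild-type libraries and 330 to 449 CPM in the knockout libraries. Most of each sum was S100a9, at means of 121 and 185 CPM, and S100a8, at 83.3 and 120 CPM. S100a8 did not pass (edgeR adjusted p = 0.0568). The part of neutrophils in the receptor genes was not tested.

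Of the genes around the processing of IL-18, some fell and others did not pass the test. Casp1, the protease that cuts the precursor, went from 33.8 CPM ± 3.04 to 8.72 CPM ± 0.77, 3.88-fold lower (edgeR adjusted p = 1.35e-05). Gsdmd, the pore protein through which the cytokine leaves the cell, was 2.97-fold lower (adjusted p = 2.59e-05), and Aim2, a DNA sensor of the inflammasome, was 1.97-fold lower (adjusted p = 0.00222). Pycard, the inflammasome adaptor, was 1.91-fold lower (adjusted p = 0.0108), and this call was lost when the unmapped share (adjusted p = 0.0691) or the share of pairs outside exons (0.0881) entered the fit. The sensor genes Nlrp3 and Nlrc4 did not pass, at log2 fold changes of -0.30 and -0.69 (adjusted p = 0.158 and 0.0535), nor did the inflammatory caspase gene Casp4 at -0.04 (adjusted p = 0.864). Over the 15 other genes of the IL-18 pathway, all tested, 7 were lower and 2 higher, and the median log2 fold change was -0.65. All 12 macrophage markers listed were lower as well, with sums of 5614 to 6511 CPM in the wild-type and 1057 to 1244 CPM in the knockout libraries, and none was at 0 in all 3 knockout libraries. The part of macrophages in the levels of Il15, Il18 and these genes was not tested. The keratinocyte and epithelial markers, genes of cell types that also make IL-18, were higher for 10 of 10 and 9 of 10. The keratinocyte count was 4 without WT1 or WT3. The part of these cells in the level of Il18 was not tested.

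Il12a (ENSMUSG00000027776, GRCm38 chromosome 3, 68690644 to 68698547, plus strand), the smaller chain that pairs with Il12b to form IL-12, had 7, 11 and 6 counts in the wild-type and 8, 0 and 7 counts in the knockout libraries. Those are 0.193, 0.291 and 0.160 CPM against 0.260, 0 and 0.301 CPM, and the count of 0 in KO2 allows up to 0.119 CPM. The gene did not pass the filter on low counts, and a difference was not detectable at this depth. Il12b was low but tested, with 62 counts in all wild-type and 35 in all knockout libraries. It was at 0.554 CPM ± 0.195 and 0.439 CPM ± 0.281 and did not pass (edgeR adjusted p = 0.670). Il12rb1, Il12rb2 and Stat4, on the receptor side, did not pass the test. Il12rb1 was at 5.16 CPM ± 0.25 and 5.11 CPM ± 0.46 (log2 fold change -0.01, 95% interval -0.35 to 0.33), and Il12rb2 and Stat4, the signalling chain and factor, were each below 1 CPM in both groups (edgeR adjusted p = 0.137 and 0.134). Il12rb2 shares 40% of its exonic bases with Serbp1, and Stat4 shares 26.7% with Gm28177. Il23a, which pairs with Il12b to form IL-23, rose 1.84-fold, from 30.2 CPM ± 4.2 to 55.7 CPM ± 4.37 (adjusted p = 0.000852). Of the 12 other genes of the IL-12 family pathway, 11 were tested, 2 were higher and 1, Irf8, was lower. Of all tested genes, 17.6% were higher and 18.4% lower. In the list 1 was higher when WT2, WT3 or KO3 was left out, and 2 were lower when KO2 was. Irf8, a transcription factor of macrophages and dendritic cells, was 2.01-fold lower (adjusted p = 0.000353).

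**Figure D3:**
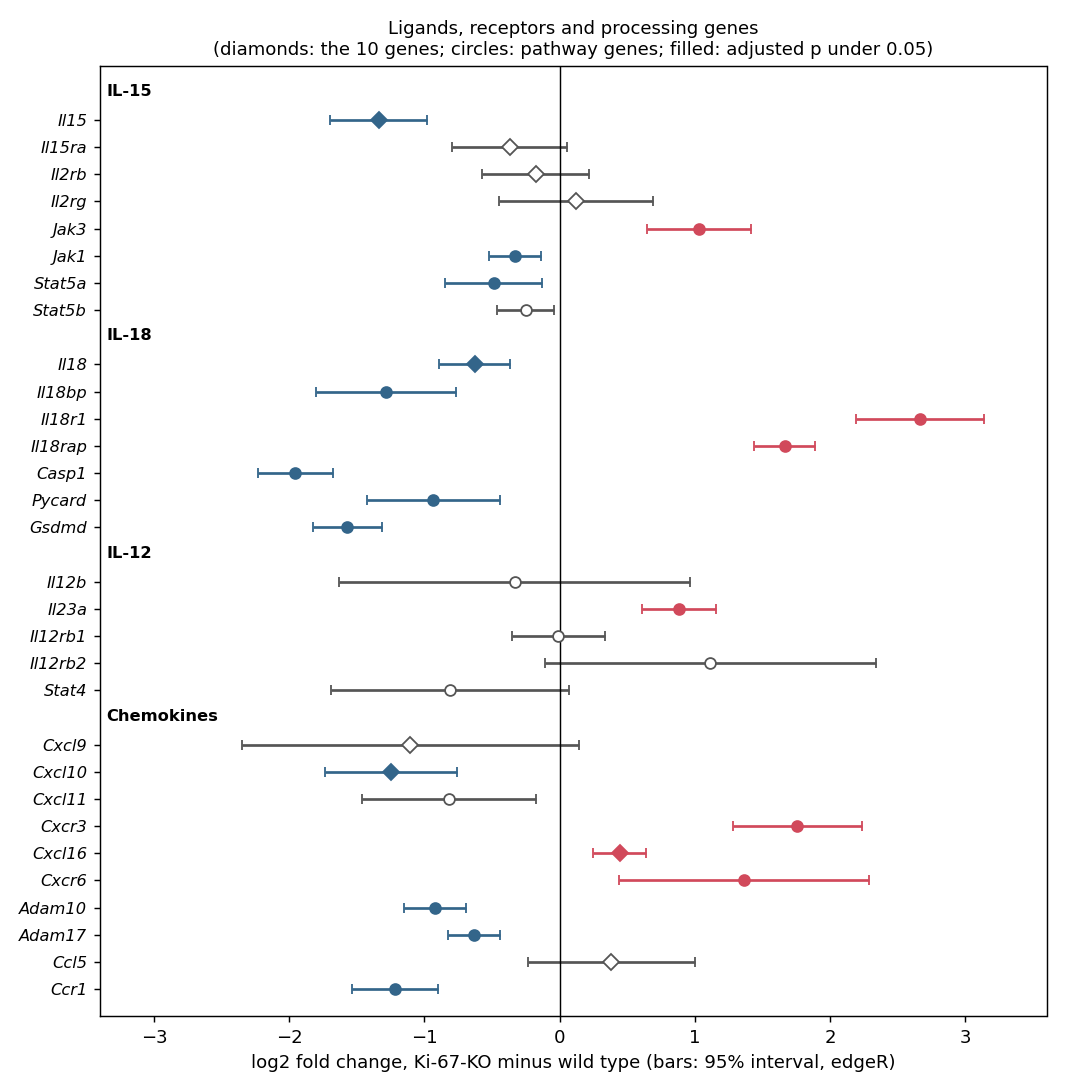
Log2 fold change (Ki-67-KO minus wild type) with 95% intervals from the edgeR fit for the tested genes of the set (diamonds) and their pathway partners (circles), grouped by axis; filled symbols passed an adjusted p of 0.05. Il15, Il18 and Cxcl10 lie left of 0, Cxcl16 lies right, and Il18r1 and Il18rap lie right at 2.66 and 1.66.

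Cxcl10 and Cxcl9 are neighbours on chromosome 5, and of this pair Cxcl10 was the more abundant and the one that passed the test. Cxcl10 (ENSMUSG00000034855, GRCm38 chromosome 5, 92346638 to 92348889, minus strand) was at 7.84, 7.18 and 7.83 CPM in wild-type and at 3.45, 2.21 and 3.96 CPM in knockout tumors. No knockout library reached the lowest wild-type library. The level was 2.37-fold lower, -1.25 on the log2 scale (SE 0.21, edgeR adjusted p = 0.00278). Art3, on the other strand, shares 5.91% of the exonic bases of Cxcl10 and rose from 1.58 CPM ± 0.29 to 5.12 CPM ± 2.45. Pairs from the shared bases were not counted for either gene, so the fall of Cxcl10 is read from the remaining bases.

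The 250 bases before each gene's start are shown because the letters searched occurred at Cxcl10 and not at Cxcl9, although both genes are interferon-induced. They are from RefSeq (GRCm38.p6), 5′ to 3′ on the minus strand, chr5:92348890-92349139 for Cxcl10 and chr5:92328080-92328329 for Cxcl9. Capitals mark matches to the core of the interferon-stimulated response element (GAAA, any 2 bases, GAAA), to the gamma-activated site (TTC, any 3 bases, GAA), or to the NF-kappaB motif, searched on both strands.
Cxcl10: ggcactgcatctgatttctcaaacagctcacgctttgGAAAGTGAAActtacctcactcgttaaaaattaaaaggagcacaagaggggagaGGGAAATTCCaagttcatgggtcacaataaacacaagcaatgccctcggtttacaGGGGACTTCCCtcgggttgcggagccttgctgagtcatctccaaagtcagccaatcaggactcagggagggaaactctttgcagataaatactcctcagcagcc
Cxcl9: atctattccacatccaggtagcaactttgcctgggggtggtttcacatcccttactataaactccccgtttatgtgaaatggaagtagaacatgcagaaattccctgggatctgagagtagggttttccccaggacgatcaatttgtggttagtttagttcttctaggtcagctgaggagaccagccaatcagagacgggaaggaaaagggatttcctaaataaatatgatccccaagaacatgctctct
Cxcl10 held the response element core from base -213 to base -204, counted back from the start, and NF-kappaB matches from -159 to -150 and at -104 to -94, where 2 matches overlap. Cxcl9 held no match to these letters in this window. Promoters were matched for 6 of the 10 genes. Besides Cxcl10, those of Il15ra, Il18, Il12a, Cxcl9 and Il2rg held no match to any of the 3 motifs. Of all 32851 promoters in the table, 2.98% held the response element core, 7.02% the gamma-activated site and 7.25% the NF-kappaB motif. A match describes the letters only, and a site that differs from them by a base was not counted. The part of these letters in the levels was not tested.

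Cxcl9 (ENSMUSG00000029417, GRCm38 chromosome 5, 92321347 to 92328079, minus strand) was at 0.883, 0.980 and 2.99 CPM in wild-type and at 0.455, 0.711 and 1.12 CPM in knockout tumors. WT3 stood apart at about 3 CPM, and KO3 lay above the other wild-type libraries, so the groups overlapped. The log2 fold change was -1.10 (95% interval -2.35 to 0.14, edgeR adjusted p = 0.146) and moved to -0.36 without WT3 (adjusted p = 0.610). It passed when no filter on low counts was applied (adjusted p = 0.0146), and the 18 alternatives gave adjusted p-values between 0.0146 and 0.610. Cxcl11, the next gene of the cluster, annotated as a polymorphic pseudogene and sharing 41.7% of its exonic bases with Gm2673, was 1.76-fold lower in value and did not pass (adjusted p = 0.0509); it passed in 4 of 18 alternatives, among them DESeq2 (adjusted p = 0.0468) and the fit without KO1 (adjusted p = 0.0236).

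The receptor of these chemokines moved against its ligand Cxcl10. Cxcr3 was at 3.84, 2.70 and 4.2 CPM in wild-type and at 10.7, 14.7 and 10.97 CPM in knockout tumors, 3.38-fold higher (log2 fold change 1.76, SE 0.21, edgeR adjusted p = 0.0004). The counts do not show which cells held Cxcr3 or Cxcl10, and the part of any cell type in the rise was not tested. Of the interferon-gamma pathway, Irf1, a transcription factor that interferon induces, was 1.53-fold lower (adjusted p = 0.00285). Nlrc5, the activator of class I genes, was 1.71-fold lower (adjusted p = 0.00256). Irf9, a factor of the interferon response, rose 1.52-fold (adjusted p = 0.00158). Over the 12 genes listed, 11 were tested, 3 were lower and 2 higher, with a median of -0.16. Of all tested genes, 18.4% were lower and 17.6% higher. In the list 5 were lower when KO2 was left out, and 1 was higher when WT1, WT3 or KO3 was. Ifng itself had 20 counts in all wild-type and 5 in all knockout libraries and was not tested.

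Cxcl16 (ENSMUSG00000018920, GRCm38 chromosome 11, 70453983 to 70459984, minus strand), a chemokine made as a membrane protein that can be shed, was the most abundant of the 10 genes and the only one called higher. It was at 76.3, 68.1 and 77.3 CPM in wild-type and at 99.9, 102.9 and 98.7 CPM in knockout tumors, with no overlap. The rise was 1.36-fold, 0.44 on the log2 scale (SE 0.09, edgeR adjusted p = 0.00483). The call was lost without WT2 and without the filter on low counts (log2 fold change 0.36 and adjusted p = 0.0580 in each), and over the 18 alternatives the adjusted p ranged from 4.84e-05 to 0.0580. Zmynd15, on the other strand, shares 18.3% of its exonic bases. Its receptor gene Cxcr6 had 63 counts in all wild-type and 115 in all knockout libraries, from 0.564 CPM ± 0.298 to 1.46 CPM ± 0.33. Cxcr6 passed (edgeR adjusted p = 0.0296) and did so in 11 of the 18 alternatives, but not without WT1 (0.120), WT2 (0.113) or KO3 (0.0949). The sheddases of CXCL16 fell while their substrate rose. Adam10 was 1.89-fold lower, from 361 CPM ± 21.1 to 191 CPM ± 18.1 (edgeR adjusted p = 0.000265), and Adam17 was 1.55-fold lower (adjusted p = 0.00071).

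Ccl5 (ENSMUSG00000035042, GRCm38 chromosome 11, 83525778 to 83530518, minus strand), which natural killer cells, T cells and macrophages make, was at 2.43, 2.28 and 2.11 CPM in wild-type and at 1.95, 3.99 and 2.97 CPM in knockout tumors. KO1 lay below every wild-type library and the other two lay above. The log2 fold change was 0.38 (95% interval -0.24 to 1.00, edgeR adjusted p = 0.300). It was 0.61 without KO1 (adjusted p = 0.0483) and 0.05 without KO2 (adjusted p = 0.867), with adjusted p-values between 0.0483 and 0.867 over the alternatives. It turned to -0.17 when the unmapped share entered the fit. Ccr1, a receptor gene of CCL5, was 2.33-fold lower (adjusted p = 0.000335). It is also a macrophage gene, and the part of those cells was not tested. Of the 21 other chemokine and receptor genes listed, 20 were tested, 8 were lower and 6 higher, with a median of -0.25; the number higher was 3 without WT1, WT2 or KO3.

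**Figure D4:**
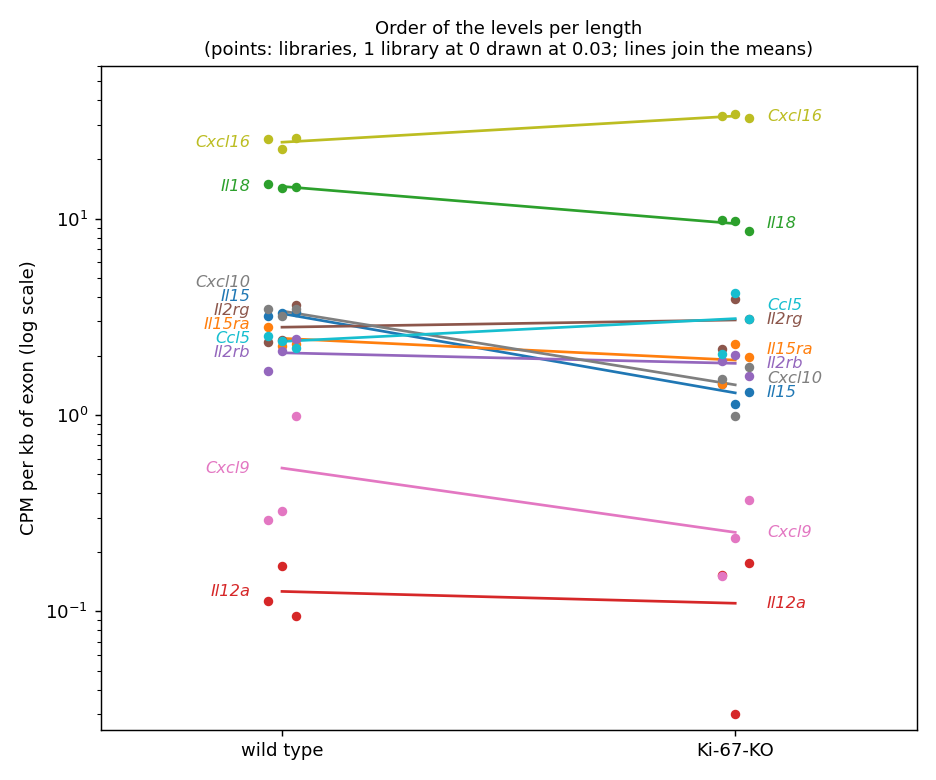
Level of each gene as CPM per kb of exon on a log axis, in wild-type and Ki-67-KO tumors; points are libraries and lines join group means, and the 1 library at 0 (Il12a) is drawn at 0.03. Cxcl16 and Il18 lead in both groups, and on this length Il15 and Cxcl10 pass from ranks 4 and 3 in wild-type to ranks 8 and 7 in Ki-67-KO tumors. The length includes exonic bases shared with other genes, where pairs were not counted.

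Set per length, Cxcl16 led in both groups at 24.5 and 33.3 CPM per kb of exon, followed by Il18 at 14.6 and 9.42 CPM per kb. The length includes bases shared with other genes, where pairs were not counted: 30.5% for Il2rg, 18.3% for Cxcl16 and 5.91% for Cxcl10. The values of these genes are therefore too low, and the order of the 6 genes that follow Il18 is not settled. In wild-type tumors Cxcl10, Il15, Il2rg, Il15ra, Ccl5 and Il2rb followed at 3.38 to 2.07 CPM per kb, and each of these 6 overlapped its neighbour in the order. In knockout tumors the order of the same 6 was Ccl5, Il2rg, Il15ra, Il2rb, Cxcl10 and Il15, from 3.09 to 1.30 CPM per kb, again with overlapping neighbours. Cxcl9 and Il12a were lowest, at 0.537 and 0.126 CPM per kb in wild-type and 0.253 and 0.110 CPM per kb in knockout tumors. With the longest transcript in place of all exons, 6 of 10 genes kept their rank in wild-type and 8 of 10 in knockout tumors. Il15 and Cxcl10 were then at ranks 5 and 6 in wild-type tumors, below Il15ra and Il2rg, and at ranks 7 and 8 in knockout tumors.

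Over the 6 libraries, the log2 levels of Il15 and Il18 correlated at 0.967 and those of Il15 and Cxcl10 at 0.962, while Il15 and Cxcl16 stood at -0.965. Among 15203 genes with a mean of at least 1 CPM, those most like Il15 were Fbxo4 and Mllt3 (Pearson r = 0.999 each), those most like Il18 were Zfp84 and Rps6kc1, and those most like Cxcl10 were Cadps2 and Fam171b. Most like Cxcl16 were Bcat1 and Irf9 (0.997 and 0.997), most like Il2rg Fetub and Irf2, and most like Ccl5 Pef1 and Hspd1-ps3. Partners picked as the highest of 15203 genes over 6 libraries tend to a high r by the search alone, also for Il2rg and Ccl5. These values rest on 6 libraries in 2 groups that also differ in depth, and are descriptions only. For Il15, Il18, Cxcl10 and Cxcl16, whose groups did not overlap, they largely restate the difference between the groups.

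**Figure D5:**
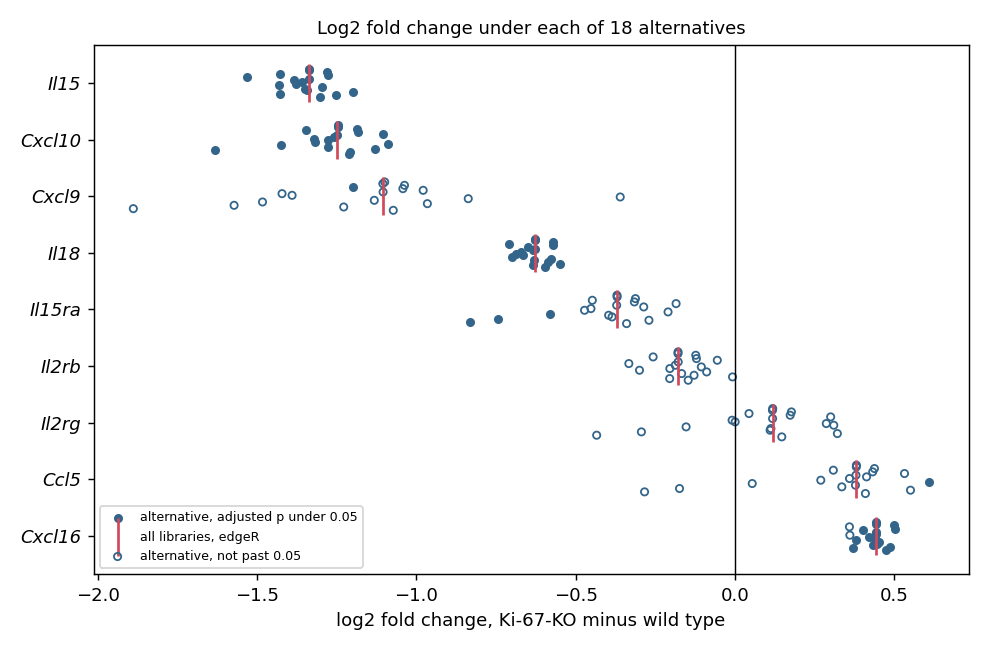
Log2 fold change (Ki-67-KO minus wild type) of the 9 tested genes with all libraries in edgeR (vertical bars) and under each of 18 alternatives (points; filled where the adjusted p was under 0.05). Il15, Il18 and Cxcl10 stay left of 0 with filled points throughout, Cxcl16 stays right of 0, and Il2rg and Ccl5 fall on both sides.

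Il15, Il18 and Cxcl10 passed under all 18 alternatives, with log2 fold changes from -1.53 to -1.20, from -0.71 to -0.55 and from -1.63 to -1.09. Il2rb passed under none of the 18, with values from -0.33 to -0.01, and Il2rg under none, with values from -0.43 to 0.32.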

How the data were processed

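Paired-end RNA-seq of 6 tumors gave 1 table each. Its deposited values are raw counts per gene, with a column that ignores strand and 1 column for each strand. The submitters' processing notes name GRCm38, FastQC, DESeq2 and STAR 2.6.0c; the annotation release is not given in the sources used here. The tables have the layout STAR writes, where pairs that map to several places or to exons of more than 1 gene are not counted. The first stranded column held 50.1% to 50.2% of stranded counts, so the unstranded column was used, and a gene and its antisense partner cannot be told apart. The 4 rows that name no gene held 45.2% to 66.5% of all pairs and stayed out. Of 54146 gene rows, 54079 matched GENCODE M21 (GRCm38) by identifier, for symbols, lengths and coordinates.

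The fit used edgeR 4.0.16 in R 4.3.3 (filterByExpr, TMM, glmQLFit, glmQLFTest, two-sided) on all 6 libraries, with Benjamini-Hochberg adjustment over 19900 genes and a threshold of 0.05. Every adjusted p is from this test unless another is named. The SE was taken as the size of the log2 fold change over the root of its F, and the 95% intervals use the fit's degrees of freedom. A count of 0 allows 3 counts, 0.0794 to 0.129 CPM on the same scale, a limit for counting error alone. The fit was tested on simulated data in which far fewer genes changed than were called here, in equal numbers up and down. That simulation does not test the scaling under the changes seen in these data. The genes of the set, the 15 lists (190 symbols, all matched) and the tests were chosen with earlier results of these data known, so counts over them are descriptions beside the same over all genes.

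Genes named are the 10 of the set, their ligands and receptors, up to 5 with the smallest p per list, and for each gene of the set the 2 tested genes with the highest Pearson r of log2 CPM. Jak1, Pycard, Nlrp3, Nlrc4, Casp4, Fscn1, S100a8 and the genes named for shared exons lie outside this rule. All of these were chosen after their values were seen. Promoters came from RefSeq (GRCm38.p6). The 18 alternatives on the fit were DESeq2 1.42.0, 2 other scalings, 2 other filters, a stranded column, a robust fit, each library left out, the replicate number as a block, 2 covariates, only libraries with under 40% unmapped pairs, and abundant genes left out. The protein comparison planned was not run, and some genes of the lists are not reported here by name.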

Additional observations from a re-analysis of the deposited data

How the results depend on the processing

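Of 162 refits of the 9 tested genes, 149 kept the direction and side of the threshold. The number of the 10 genes called lower was 3 with all libraries and 3 or 4 under every alternative. The number called higher was 1, 0 without the filter on low counts, and 0 to 2 with 1 library left out. The values that turned sign were of genes that passed in neither case. Il2rg was at -0.29 with the unmapped share as a covariate, at -0.43 with only libraries under 40% unmapped pairs, and from -0.15 to 0.31 with 1 library left out. Ccl5 was at -0.17 and -0.28 under the former pair of settings. Il12b was at 0.032 with the unmapped share as a covariate and from -0.69 to 0.057 with 1 library left out. Il12rb1 was at 0.046 with library totals alone, 0.049 with the stricter filter, 0.0997 with the unmapped share and 0.028 with the share outside exons as covariates, 0.062 with only libraries under 40% unmapped pairs, 0.023 with abundant genes left out, and from -0.094 to 0.037 with 1 library left out. The fit under 40% unmapped pairs holds 1 knockout library, which is assumed to vary like the wild-type group. The cause was not tested. Of 540 recounts of the 15 lists, 470 stayed within 1.5 times.

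Same-numbered libraries deviated together at r = 0.05, -0.21 and -0.24, so the numbers were not taken as pairs. With the replicate block 1 of the 10 genes was called higher and 3 lower, as without it, and over all genes 3082 were higher and 3580 lower against 3506 and 3652. With 1 library left out, 1821 to 4648 genes were higher and 2257 to 4778 lower. With library totals alone the higher calls were 55.5% of all calls, against 49.0%, and 39.96% in the libraries under 40% unmapped pairs. Without the filter the median of all genes' log2 fold changes moved by 0.21. Depth limits Il12a and Ifng, which did not pass the filter on low counts.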

Other observations

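The fractalkine axis, another route by which natural killer cells are drawn, moved apart at ligand and receptor. Cx3cl1, the membrane-bound ligand, rose 2.15-fold, from 96.9 CPM ± 3.25 to 208 CPM ± 24.4 (edgeR adjusted p = 0.000116). Cx3cl1 lies on chromosome 8, where the median log2 fold change was 0.44, and the part of that shift in its rise was not tested. The receptor gene Cx3cr1, also a macrophage gene, was 5.10-fold lower, from 98.2 CPM ± 2.0 to 19.3 CPM ± 3.94 (adjusted p = 1.39e-05). Tslp, an epithelial cytokine whose receptor pairs with Il7r, rose 2.24-fold (adjusted p = 0.00144). The myeloid chemokine genes Ccl6 and Ccl9 were 3.50-fold and 4.35-fold lower.

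Of the 12 T cell markers in these tumors of nude mice, 8 were tested, 1 was higher, 1 lower and 6 were not called, with a median log2 fold change of -0.07. Trac, the constant region of the T cell receptor alpha chain, was at 0.295 CPM ± 0.278 in the wild-type group and 3.53 CPM ± 0.56 in the knockout group (edgeR adjusted p = 0.00122), while Lck, a kinase of T and natural killer cells, was 2.02-fold lower (adjusted p = 0.0049). Of the 11 dendritic cell markers, 4 were higher and 1 lower. The 4 became 1 when WT1 or WT2 was left out, and 2 when WT3 or KO3 was. The 11 summed to 407 to 472 CPM in the wild-type libraries and 493 to 664 CPM in the knockout libraries. Most of each sum was Fscn1, at 403 CPM ± 30.4 and 499 CPM ± 76.4, which did not pass (edgeR adjusted p = 0.0859). Of the other lists, 9 of 10 fibroblast markers were higher and 1 lower, and 1 of 8 endothelial markers, Emcn, was higher. Of 6 B cell markers 2 were tested and 1, Pax5, was higher. Over all tested genes the shares were 17.6% higher and 18.4% lower. Emcn passed in 9 of 18 alternatives and Pax5 in 8 of 17, and both were named after their values were seen.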
